A study of Mus musculus with 4 samples.

Results

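In skin tumours of LKPR mice, 814 of 50887 filtered cells were stromal cells that carried RNA of the granzyme genes Gzmd and Gzme, 1.6% of all cells. They were chosen by their unique molecular identifier (UMI) counts, a UMI being a tag that marks 1 captured RNA molecule. A cell was taken when it had at least 200 detected genes, under 20% mitochondrial UMIs, at least 20 UMIs of the collagen genes Col1a1 and Col3a1 together and at least 3 UMIs of Gzmd and Gzme together. It also had to lack any UMI of Ptprc, the gene of the pan-leukocyte protein CD45, of Epcam, an epithelial adhesion gene, and of the YFP reporter. The same criteria without the granzyme one define the stromal gate, which held 7139 cells, and the granzyme-expressing cells were 11.4% of it. The counts of these 7 rows chose the cells, so their levels are given as a description.

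Cells came from 4 droplet libraries (10x Genomics) of live-sorted skin tumour cells, 2 of control mice and 2 of mice given NP137, an antibody that blocks the secreted guidance protein netrin-1. All mice carried Lgr5CreER, p53 fl/fl and Rosa26-YFP+/+ beside a Cre-activated oncogene allele, so recombination and the YFP mark started in Lgr5-expressing cells. All received tamoxifen, in 4 injections of 2.5 mg from postnatal day 28, and tumours were found at 7 to 9 weeks. NP137 was injected into the peritoneum every 2 days at a dose of 10 mg/kg, starting 4 weeks after tamoxifen, until death, and the labels name no vehicle or control antibody for the control mice. No age at collection is stated. Nothing in the labels ties a library to an animal of its own. The p-values therefore cover the spread between the 2 to 4 libraries used, which may be technical.

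Granzymes are serine proteases best known from killer lymphocytes, which store them in granules and deliver them into target cells through pores made by perforin. Mice have a cluster of such genes on chromosome 14 beside the mast cell protease genes, and besides Gzmb it holds several close copies, among them Gzmc, Gzmd, Gzme, Gzmf, Gzmg and Gzmn. Stromal fibroblasts make and remodel the collagen matrix of skin, and in tumours they appear in matrix-making, contractile and inflammatory forms.

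Both rule genes lie on the minus strand of chromosome 14 in GRCm38, the mouse build called mm10, with Gzme (ENSMUSG00000022156) at chr14:56117626-56120625 and Gzmd (ENSMUSG00000059256) at chr14:56129556-56132608. From Mcpt8 to Gzmb the cluster spans 180095 bases and also holds Ctsg, Gzmg, Gzmn, Gzmf and Gzmc. The 150 bases before the RefSeq start of 6 genes (RefSeq, GRCm38.p6, printed on the sense strand) are shown because Gzme, Gzmd, Gzmc and Mmp10 were high in these cells, while Gzmb and Gzmf, neighbours of Gzmc, were close to absent from them. Capitals mark 3 searched motifs: TGANNTCA, which includes the textbook cAMP response element, TGANTCA, the textbook AP-1 element, and the TATA-like TTTAAAA, each searched on both strands. The longer and shorter TGA motifs have different spacing and did not share a place in the printed sequences.
Gzme, chr14:56120626-56120775, minus strand: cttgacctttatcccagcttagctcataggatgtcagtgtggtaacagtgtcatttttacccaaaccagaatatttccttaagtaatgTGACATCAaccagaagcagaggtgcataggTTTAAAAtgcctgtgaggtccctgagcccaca
Gzmd, chr14:56132594-56132743, minus strand: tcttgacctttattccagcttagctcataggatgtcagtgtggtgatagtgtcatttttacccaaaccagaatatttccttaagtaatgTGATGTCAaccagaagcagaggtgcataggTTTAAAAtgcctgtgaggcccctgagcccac
Gzmc, chr14:56234658-56234807, minus strand: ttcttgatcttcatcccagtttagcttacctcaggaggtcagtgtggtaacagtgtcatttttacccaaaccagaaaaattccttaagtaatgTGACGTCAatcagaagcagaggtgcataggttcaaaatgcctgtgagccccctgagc
Gzmf, chr14:56211408-56211557, minus strand: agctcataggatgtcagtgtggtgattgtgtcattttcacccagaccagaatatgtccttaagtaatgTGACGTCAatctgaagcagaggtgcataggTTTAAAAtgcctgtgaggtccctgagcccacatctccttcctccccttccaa
Gzmb, chr14:56262335-56262484, minus strand: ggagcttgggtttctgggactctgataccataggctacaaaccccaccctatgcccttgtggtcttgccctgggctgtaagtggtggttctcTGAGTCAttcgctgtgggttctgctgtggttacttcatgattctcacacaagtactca
Mmp10, chr9:7502192-7502341, plus strand: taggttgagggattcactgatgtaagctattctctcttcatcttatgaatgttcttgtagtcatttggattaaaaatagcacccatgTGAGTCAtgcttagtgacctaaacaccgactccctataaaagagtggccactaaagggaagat

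The promoters of Gzme and Gzmd were identical at 94.7% of aligned positions, and Gzme and Gzmc at 85.8%, against 45.2% for Gzme and Gzmb. TGANNTCA stood 62 bases before the start of Gzme and 61 before that of Gzmd, in the forms TGACATCA and TGATGTCA. It stood 57 bases before Gzmc, 77 before Gzmg and 82 before Gzmf. Of 32851 RefSeq promoter windows of that length 8.37% held TGANNTCA. TTTAAAA, held by 4.20% of the windows, stood 32 bases before Gzme, 31 before Gzmd, 47 before Gzmg, 52 before Gzmf and 50 before Mcpt8. Mcpt8, which was also high in the granzyme-expressing cells, is not printed above and held neither TGANNTCA nor TGANTCA. Gzmn, not printed either, held none of the searched motifs. Gzmb and Mmp10 held TGAGTCA 58 and 63 bases before their starts, a form of TGANTCA, which 4.24% of the windows held. These matches are letters in a window and describe no binding. The transcripts of Gzme and Gzmd were identical at 90.4% of aligned bases, and at 84.0% over their last 300 bases, which 3′ libraries read. Gzmg and Gzmf were similarly close to Gzme, at 88.1% and 84.7%, so reads could be split among these copies, and no source used here says how the counting handled that. The sum of Gzmd and Gzme is therefore used below.

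The files held 57011 barcodes, and filtered cells numbered 11677 in control 1, 5679 in control 2, 16617 in NP137 1 and 16914 in NP137 2. Total UMIs per library ranged from 69517664 to 149021188, and 24 to 86 barcodes were shared by any pair of libraries, none of them as a granzyme-expressing cell in both. File names give control 1 and NP137 1 the same date and the other libraries dates of their own. The chosen cells were deeper than the stromal gate cells without a Gzmd or Gzme UMI, called granzyme-zero cells here. Their median UMIs were 13971 against 6214 in control 1, 5171 against 3208.5 in NP137 1 and 13414 against 11577 in NP137 2. At a depth of 2000 UMIs their median number of genes was 1040 against 1035, 1033.5 against 1041 and 1033 against 1015, so the kinds differed little in complexity at equal depth. Scrublet marked 2 of 25, 7 of 241 and 66 of 548 granzyme-expressing cells as likely doublets, and doublets were removed only in an alternative analysis.

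Granzyme-expressing stromal cells were found mainly in the NP137 libraries, which held 96.9% of them. Control 1 held 25, control 2 none, NP137 1 241 and NP137 2 548. As a share of the stromal gate this was 2.06% in control 1 (exact 95% binomial interval 1.33% to 3.02%, counting error only), 0 of 255 cells in control 2, which allows up to 1.18%, 12.7% in NP137 1 (11.2% to 14.2%) and 14.6% in NP137 2 (13.4% to 15.7%). Both NP137 libraries lay above both control libraries, and the means differed by 12.6 percentage points (1.03% against 13.6%). The exact permutation test over the 4 libraries gave p = 0.33, two-sided, the smallest p that 2 against 2 libraries allow, so the difference cannot pass a threshold of 0.05 in this design. Of all filtered cells the shares were 0.214%, 0%, 1.45% and 3.24%, a difference in means of 2.24 points with the same exact p = 0.33. Within the date shared by control 1 and NP137 1 the gate shares were the 2.06% and 12.7% given above. The libraries also differed in sex-linked RNA, as given below, and its part in these shares was not tested. When every cell was thinned to 2000 UMIs before it was gated, the shares were 0.423%, 0%, 9.80% and 7.41%, a difference of 8.39 points.

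**Figure D1:**
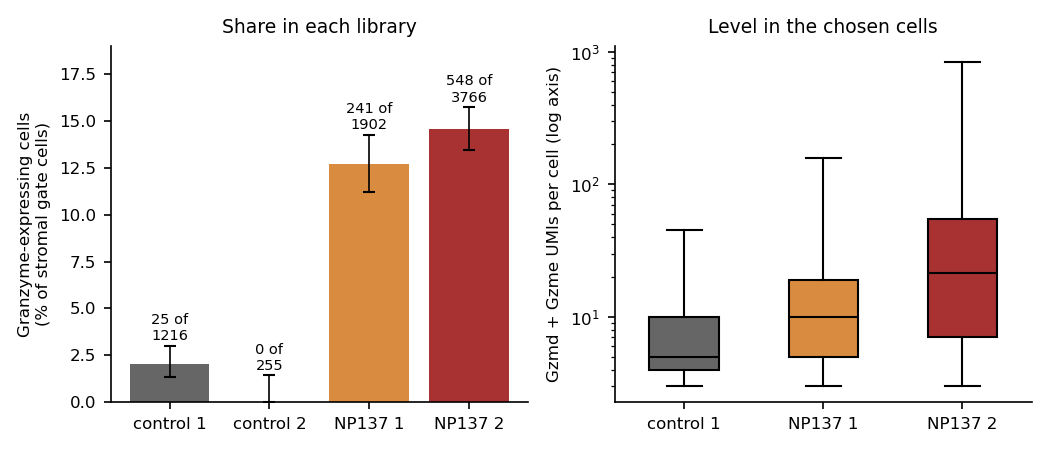
Left, granzyme-expressing cells as a percentage of stromal gate cells in each of the 4 libraries (bars, with exact 95% binomial intervals). Right, Gzmd and Gzme UMIs per chosen cell on a log axis (boxes are quartiles with the median, whiskers reach the lowest and highest cell). The share is 2.06% in control 1, 0% in control 2, 12.7% in NP137 1 and 14.6% in NP137 2, and the highest level of a single cell is 45 UMIs in control 1 against 159 and 841 in NP137 1 and NP137 2.

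The level of granzyme RNA among the chosen cells was uneven. Control 1 cells had a median of 5 UMIs of Gzmd and Gzme (range 3 to 45), NP137 1 cells 10 (3 to 159) and NP137 2 cells 21.5 (3 to 841). At least 100 such UMIs were counted in 0, 1 and 64 cells. Gzme gave 79.2%, 67.2% and 63.8% of the UMIs in the 3 libraries. Both genes were seen in 14 of 25, 185 of 241 and 431 of 548 cells, and Gzme without Gzmd in 11, 50 and 114. Gzmd without Gzme was seen in 0, 6 and 3 cells. At the threshold, 73 chosen cells had exactly 3 UMIs, while 131 stromal gate cells just outside had 2 and 407 had 1. Low levels in stromal cells near the threshold also meet free RNA: at 2000 UMIs per cell, 0.202%, 0%, 1.40% and 3.01% of macrophages and 0.218%, 0%, 0.346% and 1.03% of keratinocytes in control 1, control 2, NP137 1 and NP137 2 held a Gzmd or Gzme UMI.

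The collagen criterion removed few granzyme-positive cells. Of 1212 filtered cells with at least 3 Gzmd and Gzme UMIs, 1182 (97.5%) had at least 20 UMIs of Col1a1 and Col3a1. The other criteria left out 368 of them, of which 156 held a YFP UMI, 173 an Epcam UMI and 174 a Ptprc UMI, some of them more than 1 of these. Among collagen-positive cells with at least 3 granzyme UMIs, a YFP UMI was seen in 12.1% in control 1, 15.8% in NP137 1 and 12.2% in NP137 2. Collagen-positive cells without granzyme UMIs had 63.5%, 17.9% and 7.37% in these libraries and 70.9% in control 2. Macrophages, which should lack the reporter, had 22.4%, 13.1%, 14.8% and 6.53% in control 1, control 2, NP137 1 and NP137 2. These YFP shares are not adjusted for depth. The granzyme-positive YFP share was below the macrophage level in control 1, near it in NP137 1 and above it in NP137 2.

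Other cell types that store granzymes or mast cell proteases were checked by their marker genes. Natural killer cell markers (8 genes) summed to 0, 0.787 and 2.15 CPM, UMI counts scaled to a common library size, in the granzyme-expressing cells of control 1, NP137 1 and NP137 2, against 16.3, 1.38 and 0.754 in granzyme-zero cells, and Prf1, the perforin gene, was seen in none of the thinned chosen cells. T cell markers summed to 15.5, 16.5 and 40.4 CPM against 47.6, 26.1 and 40.7. Mast cell and basophil markers summed to 0, 7.08 and 97.3 CPM against 7.25, 9.24 and 52.5, with all 11 at 0 in the chosen cells of control 1, 9 at 0 in NP137 1 (all but Cpa3 and Hdc) and none at 0 in NP137 2, where their sum was higher than in granzyme-zero cells. Their part in the mast cell protease values below was not tested in NP137 2. Macrophage markers summed to 96.2, 52.7 and 135 CPM against 200, 95.5 and 179, and keratinocyte markers to 205, 1176 and 181 against 541, 1726 and 186. Fibroblast markers, which include the rule's collagens, summed to 35640, 25697 and 28417 CPM against 32212, 38456 and 44986. None of the tested macrophage (10), neutrophil (6), mast cell (6), keratinocyte (9) or Schwann cell and melanocyte markers (1) passed in the comparison described next, and no natural killer cell marker had enough UMIs to be tested. Cd3e of 4 T cell markers, Tek of 6 endothelial markers and Des of 2 skeletal muscle markers were lower, and of 8 fibroblast markers Thy1 was higher and Dcn lower. Of the given markers, chosen with earlier results of these data known, Mcpt8, Mmp10 and Inhba were higher in the chosen cells. Lrrc15 did not pass, and these calls are a description and no support for the name.

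UMI counts of each kind were summed per library, and granzyme-expressing cells were compared with granzyme-zero stromal cells of the same library in the 3 libraries that held both, with the library as a block. Of 12408 genes tested 452 passed at an adjusted p of 0.05 by edgeR's quasi-likelihood test (3.64%), 124 higher (0.999%) and 328 lower (2.64%) in the granzyme-expressing cells. The median log2 fold change of all genes was -0.03. DESeq2 called 352 genes (2.84%), 316 of them also called by edgeR. Cells of the granzyme-zero kind were not alike across libraries: in control 1, 45.9% of them held a Cdkn2a UMI at 2000 UMIs per cell, against 20% of the chosen cells, 26% of macrophages and 73.2% of YFP cells. The NP137 libraries went the other way. There a Cdkn2a UMI was seen in 14.1% of the chosen cells against 8.35% of granzyme-zero cells in NP137 1, and in 4.02% against 3.55% in NP137 2. Genes taken from earlier results of these data as markers of recombined tumour cells (YFP, Cdkn2a, H19, Mme, Nr2f1 and Aqp1) summed to 199, 91.3 and 53.9 CPM in the chosen cells against 1075, 120 and 94.8, with 3 of 5 tested lower (Aqp1, Mme and H19), and pericyte markers to 202, 126 and 219 against 529, 305 and 603. The part of these cells in the results was not tested beyond the comparisons below that leave out control 1 or use narrower comparison cells.

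The neighbours of Gzmd and Gzme on chromosome 14 gave the largest fold changes among the named genes. Mcpt8 (ENSMUSG00000022157, chr14:56082166-56085273), known as a basophil protease, had 118, 624 and 835 CPM in the granzyme-expressing cells of control 1, NP137 1 and NP137 2 against 1.74, 14.5 and 6.06 in granzyme-zero cells. All 3 libraries showed the difference, a log2 fold change of 6.30 (SE 0.37, edgeR adjusted p = 1.66e-04). Mcpt1, a mast cell chymase gene, had 59.0, 50.4 and 162 CPM against 0.613, 0.393 and 1.05, a log2 fold change of 7.11 (SE 0.29, edgeR adjusted p = 9.83e-08). Gzmc had 164, 285 and 243 CPM against 7.96, 20.2 and 3.28, a log2 fold change of 4.87 (SE 0.60, edgeR adjusted p = 0.0339), and it did not pass without control 1 (adjusted p = 0.278), where 1.15% of all genes were called higher. It also missed the threshold with the stricter cell filter (0.0522), with at least 5 granzyme UMIs (0.0848) and against Acta2 cells (0.0565). Over the last 300 transcript bases Gzmc was identical to Gzme at 53.7% of aligned bases, well under the 84.0% of Gzme and Gzmd. Gzmn had 0, 7.87 and 14.5 CPM against 0.102, 0 and 0.7, with no UMI in the chosen cells of control 1. Mcpt9 had 2, 1 and 46 UMIs in the chosen cells and 0, 0 and 1 in granzyme-zero cells, too few in the latter for a fold. Mcpt1, Gzmn and Mcpt9 reached the count filter only through the chosen cells, so that they differed is no support for the locus as a group.

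Not every gene of the stretch passed. Of the 14 genes of the locus list, which holds both rule genes, 7 others had enough UMIs to be tested, Gzmc, Mcpt8, Mcpt1, Gzmn, Mcpt9, Cma1 and Mcpt4. Cma1, a mast cell protease gene, did not pass, at 0, 0 and 35.6 CPM against 0.306, 0 and 18.4. It did pass against Lrrc15 cells (edgeR adjusted p = 0.0459), where 0.791% of all genes were called higher. Mcpt4 did not pass either. Gzmb, Gzmf, Gzmg, Mcpt2 and Ctsg had too few UMIs to be tested. Cma2, which lies near the cluster but outside the list and was chosen after its values were seen, had 0, 6 and 49 UMIs in the chosen cells and 0, 0 and 22 in granzyme-zero cells. Genes flanking the cluster, Khnyn, Sdr39u1, Nynrin, Cenpj, Parp4 and Mphosph8, did not pass.

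**Figure D2:**
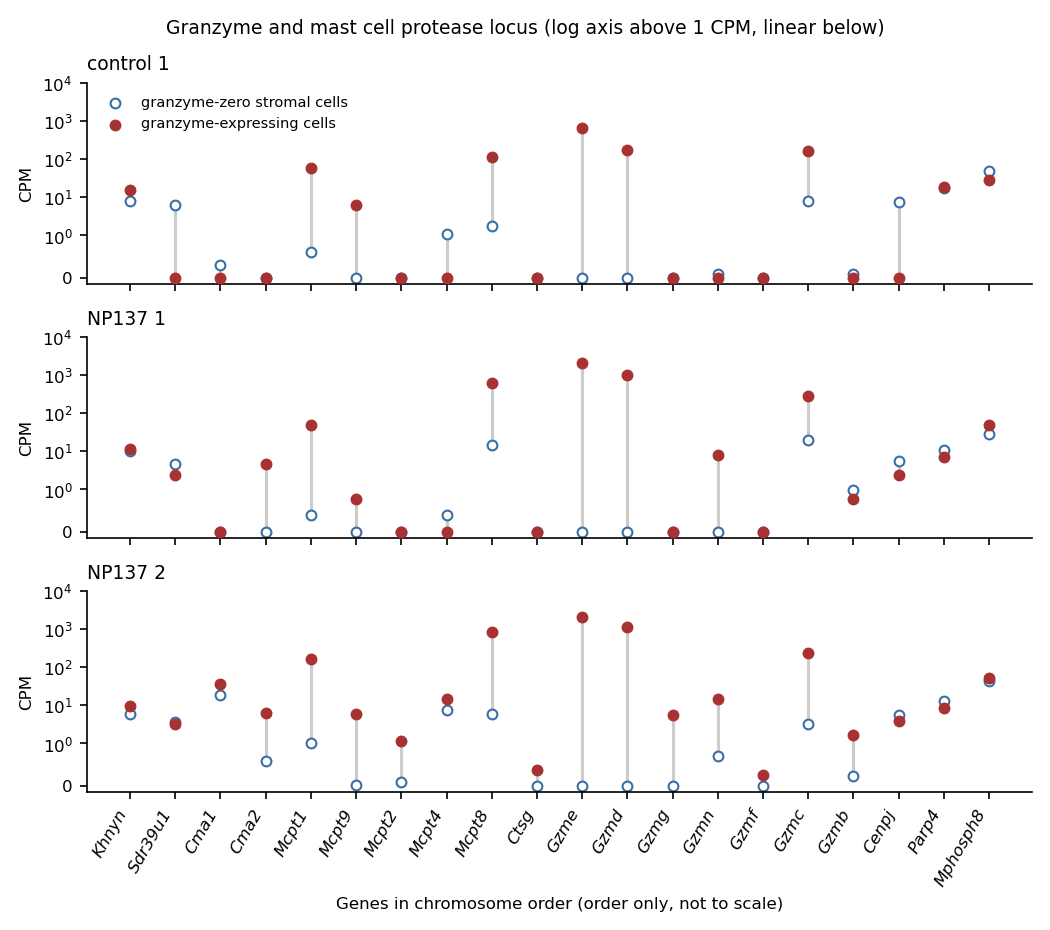
CPM (linear below 1 and log above) of the granzyme and mast cell protease genes in chromosome order, for granzyme-expressing and granzyme-zero stromal cells, 1 panel per library. Mcpt8, Mcpt1 and Gzmc stand above the granzyme-zero value in all 3 libraries (Mcpt8 118, 624 and 835 against 1.74, 14.5 and 6.06 CPM), while Gzmb stays near 0.

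The RNA of these genes was not spread over the tumour in the same way. Granzyme-expressing stromal cells held 48.9%, 66.4% and 67.4% of all Gzmd and Gzme UMIs of control 1, NP137 1 and NP137 2 (540, 5869 and 37535 UMIs) by the rule's own choice. Of Mcpt8 UMIs they held 34.5% of 110, 53.2% of 1492 and 65.7% of 10064, and of Mcpt1 UMIs 6.25% of 304, 55.7% of 115 and 62.0% of 2075. Gzmc went differently in control 1, where they held 2.93% of 1809 UMIs, against 30.1% of 1201 and 59.9% of 3210 in the NP137 libraries. Gzmb, the granzyme of killer lymphocytes, had 254, 285 and 1539 UMIs in these libraries, of which 0%, 0.351% and 0.845% came from the chosen cells. Control 2 had 36 Gzmd and Gzme UMIs and 929 Gzmc UMIs. Gzmf showed the reverse of Gzme across libraries, with 288 UMIs in control 1 and 115 in control 2 but 1 in NP137 1 and 2 in NP137 2.

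Detection per cell, after thinning each to 2000 UMIs, gave the same order for Mcpt8. It was seen in 16% of the 25 chosen cells of control 1 (exact interval 4.54% to 36.1%), 50.9% of 234 in NP137 1 (44.3% to 57.4%) and 57.4% of 547 in NP137 2 (53.1% to 61.6%). Unthinned, the NP137 shares were 71.8% and 84.9%. Granzyme-zero cells had 0.645%, 1.91% and 0.983%, and macrophages 0%, 0.468% and 1.45%, so the shares in the chosen cells were far above the level of free RNA. Gzmb was seen in 0%, 0% and 0.183% of the chosen cells, while lymphocytes of the same libraries had 9.71%, 11.6% and 16.8%. In mast cells and basophils of NP137 2, Cma1 was seen in 29 of 31 thinned cells and Mcpt8 in 2 of 31.

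Within the stromal gate the shares moved with granzyme level in different ways. In NP137 2, Mcpt8 was seen in 0.983% of granzyme-zero cells, 6.82% of cells with 1 or 2 granzyme UMIs, 30.3% with 3 to 9, 50.0% with 10 to 29 and 83.3% with at least 30. NP137 1 gave 1.91%, 25.4%, 41.8%, 48.9% and 85.3%, again an increase at each step. Gzmc was seen in 9.55% of cells with 3 to 9 UMIs and 43.2% with at least 30 in NP137 2, and in 30.0% and 52.9% in NP137 1. Mmp10 followed with 5.55%, 16.6%, 50.0%, 55.6% and 69.6% in NP137 2 and 22.1%, 35.9%, 50.9%, 71.1% and 85.3% in NP137 1. Lrrc15, a membrane protein gene of matrix-making cancer fibroblasts, was already at 50.7% with 1 or 2 granzyme UMIs in NP137 2 and between 72.5% and 77.5% above that. Inhba in NP137 1 was at 56.3% with 1 or 2 UMIs and between 54.4% and 62.7% above. Acta2, the gene of smooth muscle actin, was highest in the middle levels, at 92.3% with 10 to 29 UMIs in NP137 2 and 90.9% with 3 to 9 in NP137 1, and was 67.6% in the highest level of NP137 1. Control 1 had too few cells above 2 granzyme UMIs for these steps. The strata were cut by UMIs before thinning, so deeper cells are more frequent in the higher ones.

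**Figure D3:**
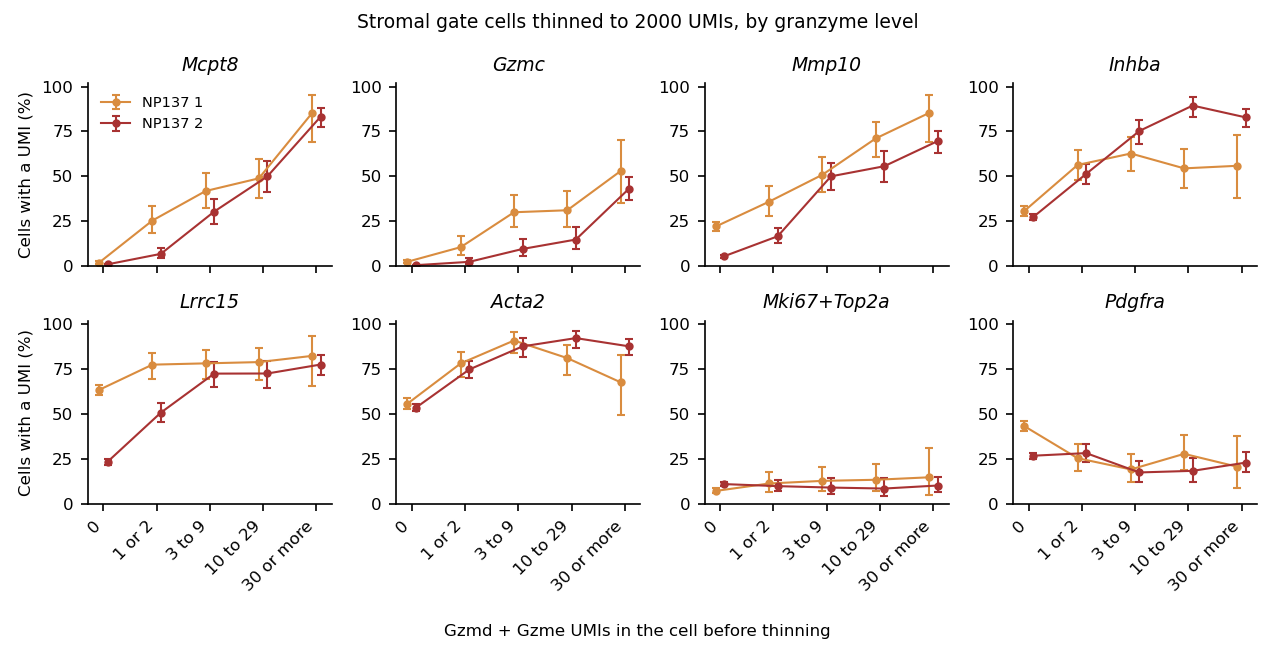
Percentage of stromal gate cells with a UMI of each gene after thinning to 2000 UMIs, by the cell's Gzmd and Gzme UMIs (0, 1 to 2, 3 to 9, 10 to 29, at least 30), 1 line per library with exact 95% binomial bars. Mcpt8 climbs at each step to 83.3% and 85.3% in the NP137 libraries, whereas Lrrc15 in NP137 2 is near its full level from 3 UMIs on.

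Beyond the locus, Mmp10, Inhba, Spp1, Pgf and Il1a, which encode secreted proteins, were among the higher named genes. Mmp10 (ENSMUSG00000047562, chromosome 9), a stromelysin that cleaves many matrix proteins, had 223, 1101 and 1116 CPM against 40.1, 221 and 64.3, with a log2 fold change of 3.03 (SE 0.41, edgeR adjusted p = 0.0213). Without control 1 it did not pass (adjusted p = 0.168). Inhba, which encodes the activin A subunit, had 707, 646 and 1337 CPM against 263, 303 and 443, a log2 fold change of 1.41 (SE 0.17, edgeR adjusted p = 7.12e-04). Lrrc15 had 1061, 958 and 814 CPM against 357, 832 and 208 and did not pass (log2 fold change 1.30, SE 0.36, edgeR adjusted p = 0.162), while it passed with DESeq2 (adjusted p = 0.0158), which called 0.887% of genes higher, and on sums of thinned cells (edgeR adjusted p = 5.7e-07), where 2.22% were called higher. Spp1, the gene of the secreted matrix protein osteopontin, had 3593, 6911 and 4377 CPM against 1413, 1729 and 1316, a log2 fold change of 1.74. Pgf, a vascular growth factor gene, had 62.1, 238 and 236 CPM against 26.4, 67.4 and 52.8, and Il1a, the interleukin 1 alpha gene, 24.8, 33.1 and 51.7 CPM against 4.29, 13.6 and 13.1. Both passed, with log2 fold changes of 1.85 and 1.86. Among the largest increases were also Chst13 (2.52), Htr2a, a serotonin receptor gene (1.98), Cd53, a tetraspanin gene known from leukocytes (1.94), Cnn1 (1.82) and Hs6st2 (1.63). Of 19 tested metalloproteinase and inhibitor genes 2 passed as higher, Mmp10 and Adam19, and Mmp2 as lower (-1.28). Over all genes 0.999% were called higher and 2.64% lower. Mmp9 and Mmp13 did not pass, with 230, 2643 and 2096 CPM against 167, 928 and 199 for Mmp9. Both passed with DESeq2 (adjusted p = 0.00637 and 0.00805). By edgeR both passed without NP137 2 (7.52e-04 and 2.01e-04, with 1.11% of all genes called higher), and Mmp13 without NP137 1 (3.72e-15). Neither passed without control 1 (0.306 and 0.749). The fits with 1 library left out used 2 libraries, so their p-values say little on the spread between libraries and add no support.

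**Figure D4:**
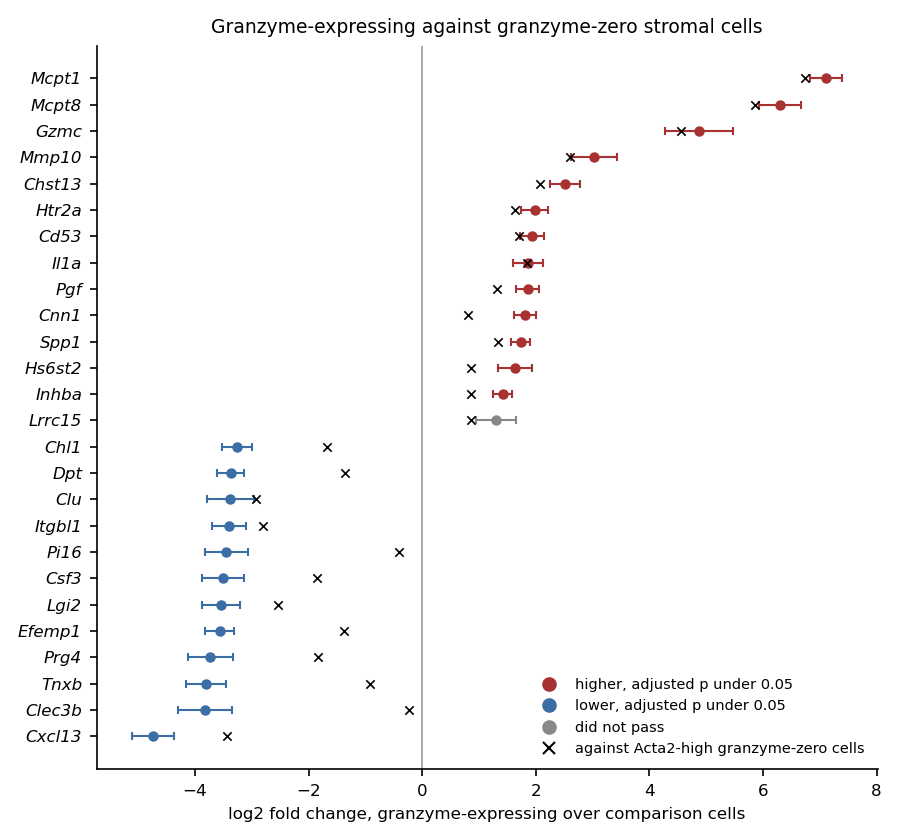
Log2 fold change of named genes in granzyme-expressing over comparison stromal cells (points, with the standard error for all granzyme-zero cells). Crosses give the values against comparison cells with at least 5 Acta2 UMIs. Mcpt1 and Mcpt8 lie farthest to the right at 7.11 and 6.30, and Cxcl13 farthest to the left at -4.74.

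Several genes of quiescent dermal fibroblasts were lower. Of 24 tested genes on the list of universal and dermal fibroblast genes 14 passed as lower and none as higher, with a median log2 fold change of -1.61 against -0.03 for all genes, and against 2.64% of all genes called lower. Dpt, the dermatopontin gene, had 3.1, 11.8 and 27.3 CPM against 86.5, 107 and 281, lower in all 3 libraries (log2 fold change -3.37, edgeR adjusted p = 3.1e-05). Dcn, the gene of the collagen-binding proteoglycan decorin, had 406, 343 and 765 CPM against 3094, 1735 and 3236 (-2.39). Pi16 (-3.45), Clec3b (-3.82), Tnxb (-3.80), the gene of the matrix protein tenascin X, and Cd34 (-2.54) passed in the same direction. Clec3b and Tnxb had 0, 0 and 213 and 0, 1 and 127 UMIs in the chosen cells. Both reached the count filter only through granzyme-zero cells, so their calls add no support to the list count. Without control 1, 15 of 23 passed as lower (3.52% of all genes), and with Cdkn2a-positive cells left out of both kinds 12 of 23 (2.26% of all genes). Against comparison cells with at least 1 Lrrc15 UMI, 12 of 24 passed as lower (1.59% of all genes), and against those with at least 5 Acta2 UMIs, 4 of 23 (1.08% of all genes). The list median was -0.29 against Acta2 cells, and there Clec3b (-0.23), Pi16 (-0.41) and Cd34 (-0.46) did not pass. Clec3b did not pass against Lrrc15 cells either (-2.03, edgeR adjusted p = 0.116).

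Some inflammatory fibroblast genes were lower too. Of 23 tested genes of that list 8 passed as lower and none as higher, against 2.64% of all genes called lower. The other 15 did not pass, and the median log2 fold change was -1.23. Saa3, an acute phase gene, had 127, 256 and 819 CPM against 1295, 2619 and 6236 (-3.16, edgeR adjusted p = 2.2e-06). Cxcl12, the gene of the chemokine that binds Cxcr4, had 93.1, 36.2 and 64.8 CPM against 517, 226 and 691 (-2.86), and Has1, a hyaluronan synthase gene, had a log2 fold change of -2.94. Csf3 (-3.51), Ccl2, Ccl8, Cxcl1 and Lif were the others. Cxcl13, a B cell chemokine gene, had 0, 0 and 4.3 CPM against 5.31, 16.1 and 108. It reached the count filter only through granzyme-zero cells, so its call adds no support. The inflammatory list gave 11 lower without control 1 (3.52% of all genes) and 9 with Cdkn2a cells left out (2.26%). It gave 10 against Lrrc15 cells (1.59%) and 5 against Acta2 cells (1.08%). Of the growth factor and Wnt genes 4 of 23 were lower and none higher, with Wif1 at -3.99, Sfrp2 at -1.93, Sfrp4 at -2.08 and Igf1 at -2.25. Wif1 had 1, 1 and 1 UMIs in the chosen cells. As it reached the count filter only through granzyme-zero cells, its call adds no support. Against Acta2 cells the value of Sfrp4 was 0.71.

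Fewer matrix-making and contractile genes were called. Of 29 tested matrix-making genes 3 passed as higher, Fn1 (0.78), Angptl2 (1.00) and Loxl3 (0.86), and Tnfaip6 as lower (-1.87), with a list median of 0.51. For this and the contractile list, the shares over all genes were 0.999% higher and 2.64% lower. Without control 1 the median was 0.10, Fn1 and Loxl3 did not pass, and 2 genes were higher and 2 lower, while 9 were higher without NP137 1 (1.58% of all genes), 8 on thinned sums (2.22%) and 0 with Cdkn2a-positive cells left out. Of 14 contractile genes 4 passed as higher and none as lower, with a median of 0.76. These were Cnn1, Tpm1, Tpm2 and Actg2, and Tpm1, a tropomyosin gene, had 1272, 1664 and 1833 CPM against 560, 908 and 818. Acta2 did not pass (4502, 2747 and 4142 CPM against 1081, 1583 and 2486; log2 fold change 1.23, edgeR adjusted p = 0.0799). It passed with DESeq2 (adjusted p = 0.0111), on thinned sums (edgeR adjusted p = 3.45e-13) and with the stricter cell filter (0.0489, with 1.25% of all genes called higher). By edgeR it also passed without control 1 (0.0253), NP137 1 (1.77e-05) or NP137 2 (4.37e-08). Those fits used 2 libraries, so their p-values say little on the spread between libraries. At 2000 UMIs per cell Acta2 was seen in 96.0%, 83.8% and 88.8% of the chosen cells against 37.5%, 55.7% and 53.5% of granzyme-zero cells. Against comparison cells with Acta2 UMIs, chosen on a gene of the list, 1 of 13 contractile genes passed as higher (0.601% of all genes) and 1 as lower. Of 8 pericyte and smooth muscle markers 6 passed as lower, among them Rgs5 (3.1, 23.6 and 54.5 CPM against 229, 133 and 323), and Cspg4 as higher.

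**Figure D5:**
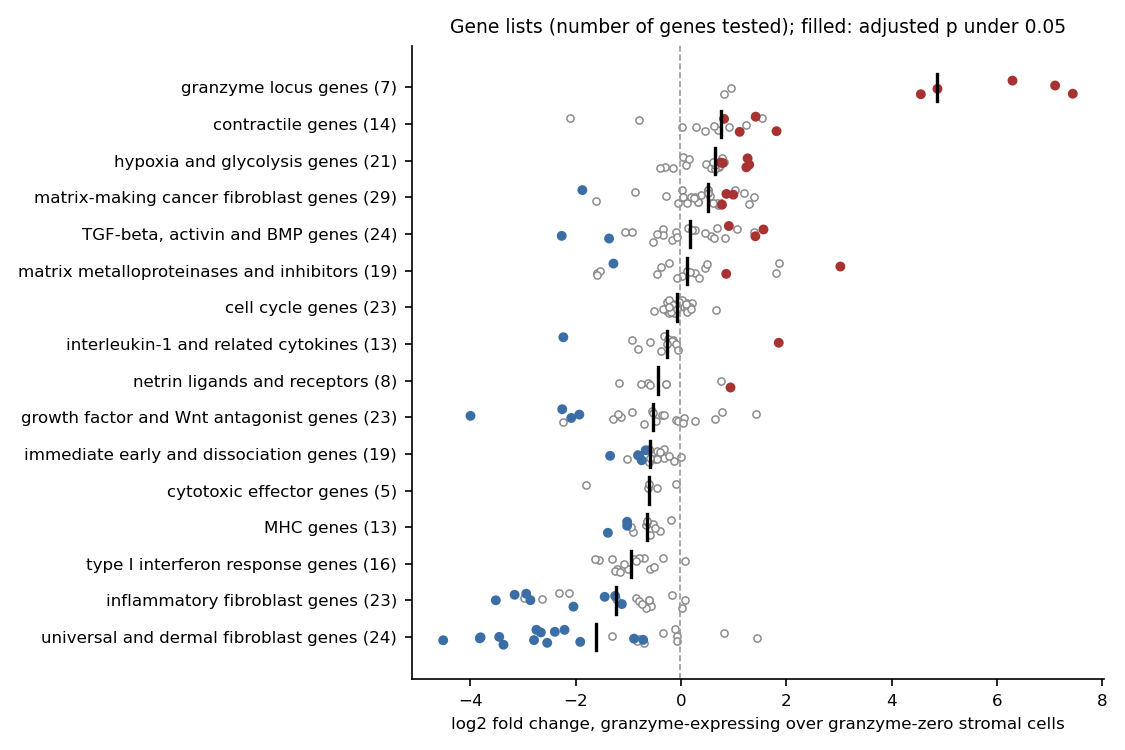
Log2 fold change of each tested gene of the fixed lists in granzyme-expressing over granzyme-zero stromal cells (points are genes, filled where edgeR's adjusted p was under 0.05, bars mark list medians). The universal and dermal fibroblast genes have a median of -1.61 and the inflammatory ones -1.23, while the hypoxia list has 0.64 and the cell cycle list -0.08.

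Genes of low oxygen and sugar breakdown were in part higher. Of 21 tested genes 5 passed as higher and none as lower, with a median of 0.64. For the lists of this paragraph, the shares over all genes were 0.999% higher and 2.64% lower. Pgk1, a glycolysis enzyme gene, had 794, 984 and 870 CPM against 334, 375 and 447 (log2 fold change 1.24), and Bnip3 (1.30), Ldha (0.79), Gapdh (0.76) and Ankrd37 (1.27) passed as well. With Cdkn2a cells left out of both kinds 1 gene of this list passed as higher (0.473% of all genes), and with YFP cells allowed 1 (0.268%). On thinned sums 12 of 19 passed as higher (2.22% of all genes), and with at least 5 granzyme UMIs 11 of 21 (1.7%). The stricter cell filter gave 8 of 21 (1.25%), and leaving out NP137 2 gave 8 of 20 (1.11%). Without NP137 1, 2 of 21 passed and the median was 0.38. Of the TGF-beta genes Ctgf, Inhba and Tgfb1 (0.91) were higher and Ltbp3 (-1.36) and Bmp2 lower, of 24 tested, and Ctgf, a matricellular protein gene, had 785, 552 and 1259 CPM against 307, 210 and 357. Of 13 tested genes on the list of interleukin 1, related cytokines and receptors, Il1a was higher and Il18 lower (-2.23). Il18, with 1, 1 and 11 UMIs in the chosen cells, reached the count filter only through granzyme-zero cells. Immediate early genes gave 5 lower of 19, with Nr4a1 at -1.34, antigen presentation genes 3 lower of 13, with H2-D1 at -1.02, and interferon genes none of 16 at a median of -0.95. The interferon median was 0.12 without NP137 2, with Isg15 called higher, and -1.48 without NP137 1, with 7 genes lower (3.8% of all genes), and on thinned sums 7 of 14 were lower (4.95% of all genes).

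The cytotoxic and cell cycle lists gave no calls. The cytotoxic list had 5 tested genes, Srgn, Serpinb9, Serpinb9b, Serpinb6a and Serpinb6b, and none passed, with a median of -0.60. Its granzyme, perforin and killer cell genes, such as Gzma and Prf1, had too few UMIs to be tested. None of 23 cell cycle genes passed, with a median of -0.08. Mki67 had 65.2, 48.8 and 48.8 CPM against 62.4, 39.3 and 57.7. A UMI of Mki67 or Top2a was seen at equal depth in 12%, 13.2% and 9.32% of the chosen cells against 10.7%, 7.13% and 10.9% of granzyme-zero cells, in no common order. Of 8 netrin genes 1 passed as higher, against 0.999% of all genes. This was Unc5b, a netrin-1 receptor gene, with 155, 126 and 99.6 CPM against 89.6, 78.8 and 43.8 (log2 fold change 0.94, edgeR adjusted p = 0.0146). It did not pass without NP137 2 (adjusted p = 0.0842), with YFP cells allowed (0.0599) or with Cdkn2a-positive cells left out (0.0594). Ntn1, the gene of netrin-1, had 9.31, 3.93 and 8.59 CPM against 80.9, 35.8 and 6.97 and did not pass.

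Treatment within the granzyme-expressing cells could not be tested, since 1 control library held them, and values are given side by side. Mcpt8 was 118 CPM in control 1 and 624 and 835 in the NP137 libraries, and Mmp10 223 against 1101 and 1116. Mcpt1 (59.0, 50.4 and 162) and Inhba (707, 646 and 1337) in control 1 lay between or near the NP137 values. The control sum rests on 25 cells and 322308 UMIs, against 1270758 and 7915172.

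Genes most alike Gzmd and Gzme were found by Pearson's r with their summed log level over the stromal gate cells of each of the 3 libraries (1216, 1902 and 3766 cells), averaged over libraries, among 6524 genes seen in at least 5% of those cells. The 8 highest were Gzmc (mean r 0.521), Mmp10 (0.414), Mmp9 (0.350), Inhba (0.306), Spp1 (0.301), Tagln (0.280), Pgk1 (0.279) and Lrrc15 (0.273), against a median of 0.013 over all genes. The libraries differed in r. In control 1, NP137 1 and NP137 2, Mmp10 had 0.219, 0.417 and 0.605, and Mmp9 0.128, 0.325 and 0.597. Lrrc15 had 0.172, 0.141 and 0.506, while Tagln was more even at 0.278, 0.239 and 0.323. Mcpt8 had a mean of 0.682 but was seen in 1.81% of the gate cells of control 1 and so fell outside the 5% minimum. Dcn had -0.259. Cells of a library share its depth and free RNA, so these values describe and carry no test.

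NP137 1 held stromal cells with UMIs of Xist, expressed from the inactive X chromosome, and others with UMIs of Y-linked genes. Of its gate cells with Xist and no Y-linked UMI 28 of 687 were granzyme-expressing (4.08%, exact interval 2.73% to 5.84%), and of those with Y-linked UMIs and no Xist 83 of 328 (25.3%, 20.7% to 30.4%). Another 125 granzyme-expressing cells lay among 857 gate cells with neither. The Y-linked cells of NP137 1 were deeper, with a median of 4583.5 against 3230 UMIs, and the part of depth in these shares was not tested. All 25 chosen cells of control 1 had Xist alone, as had 508 of those in NP137 2, where 3241 gate cells had Xist alone. In control 2, which held no granzyme-expressing cell, 178 of 255 gate cells had Y-linked UMIs alone and none had Xist alone. In control 1, 816 gate cells had Xist alone and none had Y-linked UMIs alone. Cells of 1 library are no replicates, and the intervals cover counting error only. Whether NP137 1 holds a second animal is not given in the labels.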

How the data were processed

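Live-sorted skin tumour cells of 2 control and 2 NP137 libraries were measured with 10x Genomics droplets. The deposited values are UMI counts per gene and barcode, made by the authors; per the file headers, the 10x software was version 3.0.2. The submitters' processing notes name mm10 and Seurat 3.1.5. No source used here states the aligner settings or how barcodes were called as cells. The labels name both V2 and V3 chemistry. The files list 31053 genes and a YFP row.

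UMI counts were summed per library and kind, for libraries with at least 10 granzyme-expressing cells, and compared with glmQLFit (robust) and glmQLFTest of edgeR after TMM scaling and filterByExpr, with the library as block and Benjamini-Hochberg adjustment at 0.05. The block follows from the cells of a pair sharing a library. CPM are UMI counts scaled by the total UMIs of each sum, without TMM factors. Shares of cells with a UMI came from cells thinned once to 2000 UMIs, shallower cells left out, with exact 95% binomial intervals. The limit for a count of 0 is 3 counts. The share per library was compared by an exact permutation test. Scrublet (scanpy) marked the highest scores of each library, 0.8% per 1000 barcodes, removed only as an alternative.

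The members and the 16 gene lists and 13 cell type lists were chosen with earlier results of these data known. Named genes were the given markers and the locus genes whatever their p, the 12 of largest fold change in each direction that passed, moved the same way in every library and had at least 20 CPM, up to 4 per list by smallest p, and the 8 genes most alike. Cma2, the flanking genes and the lists of the closing section were picked once values were known.

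The results were recomputed with DESeq2, DESeq2's size factors, no filter on low counts, no library block, other cell and granzyme thresholds, doublets removed, thinned sums and each library left out. Added after seeing the data were comparison cells with at least 1 Lrrc15 UMI or 5 Acta2 UMIs, YFP cells allowed, and cells with a Cdkn2a UMI left out. On simulated counts of 12166 genes, 200 of them changed, the share found at log2 changes of 1, 2 and 3 was 67.1%, 100% and 100% for edgeR, with 22 false calls, and 58.6%, 98.5% and 100% for DESeq2, with 11.

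Gene coordinates are GENCODE M21 and sequences RefSeq GRCm38.p6. Some items are not reported here. The tools were edgeR 4.0.16 and DESeq2 1.42.0 in R 4.3.3 with limma 3.58.1, and, in Python 3.11.15, biopython 1.88, scanpy 1.11.5, matplotlib 3.10.9, scipy 1.17.1, pandas 2.3.3 and numpy 2.4.6.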

Additional observations from a re-analysis of the deposited data

How the results depend on the processing

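The difference in the gate share between NP137 and control stayed between 8.39 and 13.1 points under all thresholds tried, and between 11.6 and 13.6 points with 1 library left out, but the exact test cannot pass with 4 libraries. The difference in the share of filtered cells ranged from 1.34 to 3.13 points with 1 library left out. Against granzyme-zero cells, 452 genes were called, 124 higher and 328 lower. Without the library block 0 were called, 0 higher and 0 lower, by edgeR's test (899 at an unadjusted p under 0.05, smallest adjusted p 0.0591), where DESeq2 with the block called 352. Other counts called, higher and lower were 1023, 321 and 702 without the filter on low counts, 701, 217 and 484 on thinned sums, 345, 82 and 263 with doublets removed, 675, 208 and 467 with at least 5 granzyme UMIs, 283, 94 and 189 against Lrrc15 cells, 179, 64 and 115 against Acta2 cells, 155, 34 and 121 with YFP cells allowed and 312, 54 and 258 with Cdkn2a cells left out. With Cdkn2a cells left out, control 1 kept 8 granzyme-expressing cells and dropped from the fit. With 1 library left out the counts ranged from 347 to 662 called, 118 to 194 higher and 229 to 468 lower, and without NP137 1 194 genes were higher. These fits, and that with Cdkn2a cells left out, used 2 libraries. Their p-values therefore say little on the spread between libraries. Of the named genes 61 were called, and 55 of them passed with DESeq2, 50 with doublets removed, 49 against Lrrc15 cells, 32 of 60 against Acta2 cells, 37 with YFP cells allowed and 48 of 59 without control 1, where Gzmc and Mmp10 did not pass. Mmp10 also missed the threshold with doublets removed (adjusted p = 0.0577), with the stricter cell filter (0.0588), with Cdkn2a cells left out (0.108) and against Acta2 cells (0.308). Gzmc missed it with the stricter cell filter (0.0522), with at least 5 granzyme UMIs (0.0848) and against Acta2 cells (0.0565). Over the 15 alternatives other than without the block, 1 to 12 hypoxia genes, 1 to 9 contractile genes and 0 to 10 matrix-making genes were higher, and 4 to 17 universal and dermal, 4 to 17 inflammatory, 2 to 9 growth factor and Wnt, 1 to 10 immediate early and 0 to 6 antigen presentation genes lower, against 0.268% to 2.22% of all genes higher and 0.953% to 4.95% lower. Mcpt8 and Inhba were called under every alternative except without the library block. Mcpt1 was too, but it reached the count filter only through the chosen cells, so its calls add no support. The log2 fold change of Cma1, not called, was -1.66 with doublets removed and -0.53 on thinned sums, and that of Sfrp4 against Acta2 cells was 0.71. The cause of these shifts was not tested. The comparison with granzyme-zero cells was itself paired by library. For NP137 against control within the granzyme-expressing cells there was no test. No paired analysis was possible because 1 control library alone held such cells, and the difference of that effect from granzyme-zero cells was not run either. The 25 cells of control 1 limit its precision.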

Other observations

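The lists below were put together after their values were seen and are descriptions. Of 11 tested complement genes 5 passed as lower in the granzyme-expressing cells and none as higher by edgeR's test (median log2 fold change -1.41). The share of all genes called lower was 2.64%. C4b had 40.3, 5.51 and 48.0 CPM in control 1, NP137 1 and NP137 2 against 203, 115 and 468 in granzyme-zero cells (-3.25), and Cfb (-2.79), C1s1 (-1.73), C1ra (-1.61) and C2 (-1.41) passed as well. Cfb, with 0, 0 and 5.56 CPM in the chosen cells, reached the count filter only through granzyme-zero cells, so its call adds no support. Of 9 tested transcription factor genes of dermal fibroblasts 6 passed as lower and none as higher (median -1.90), among them Osr1 (-2.03), Osr2 (-2.17), Nfia (-1.90), Nfib (-1.94), Nfix (-1.19) and Klf4 (-1.54).

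Of 12 tested targets and inhibitors of the ERK pathway 3 passed as higher and none as lower, with a median of 0.12. The share of all genes called higher was 0.999%. Etv4, a transcription factor gene, had 80.7, 136 and 90.0 CPM against 39.3, 51.5 and 21.2 (log2 fold change 1.61), higher in all 3 libraries. Spry4 (1.09) and Dusp6 (0.96), both inhibitors of the pathway, passed too. Granzyme-zero cells in control 1 held more Cdkn2a UMIs and tumour markers than the chosen cells, and the part of this in these values was not tested.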
